A study of Mus musculus with 6 samples.

Results

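The cytosolic ribosomal protein genes of mouse jejunal enteroids were taken from a gene expression table by name and type. A gene was a member when the table listed it as protein coding and its symbol began with Rpl or Rps followed by a number, or was Rplp with a number or Rpsa. The S6 kinase genes, whose symbols begin with Rps6k, and Rps19bp1 were left out. The rule found 102 of 40769 genes. Of these, 87 passed the filter on low values, an RPKM (reads scaled by gene length and library size) of 0.5 or more in 2 or more of the 6 libraries, and were tested. By the start of their symbols, 36 were assigned to the small subunit (Rps) and 51 to the large subunit (Rpl). These numbers include paralogs and some members named as pseudogenes. The 15 not tested were Rpl3l, Rpl6l, Rpl10l, Rpl39l and members named as pseudogenes: Rpl7a-ps3, Rpl7a-ps5, Rpl9-ps1, Rpl9-ps6, Rpl10-ps3, Rpl13-ps3, Rpl21-ps4, Rpl23a-ps3, Rpl27-ps3, Rpl36-ps4 and Rps2-ps6.

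The study sequenced polyadenylated RNA of enteroids, cultures of gut epithelium, from C57BL/6 mice grown in serum-free ENR medium. All lines carried a piggyBac transposon, a vector that inserts into the genome. PLAGL2 clone 3 (high PLAGL2 by its label) and PLAGL2 clone 1 (low) expressed the zinc finger transcription factor PLAGL2 constitutively, and the control line expressed GFP. Each PLAGL2 line is 1 clone. Each line gave 1 library at passage 7 and 1 at passage 5, so both libraries of a line come from 1 transfected culture and p-values for the lines measure the spread between its passages.

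The cytosolic ribosome joins a small subunit, which decodes the messenger RNA, to a large subunit, which forms the peptide bonds. Each subunit is built in the nucleolus from ribosomal RNA and a set of proteins, most of which are present once per ribosome and come from a single active gene. In mammals these genes have left many processed pseudogenes, copies of the spliced message inserted elsewhere in the genome, so that reads from the message can match several places. In crypts, dividing stem and progenitor cells are known for high ribosome production.

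Totals recovered from the steps of the RPKM values lay between 13779304 and 17319949 reads per library. At passages 7 and 5 they were 15078072 and 16664405 in clone 3, 15433635 and 17319949 in clone 1, and 13779304 and 16604306 in GFP. Depth was thus lower at passage 7 in every line, and its part in the passage differences was not tested. Plagl2 had 37.2 RPKM in both libraries of clone 3, 26.5 (passage 7) and 30.9 (passage 5) in clone 1, and 23.1 and 22.8 in GFP. Epithelial markers were high in every library, with Epcam at 478 to 554 RPKM, while 17 markers of immune, vessel, stromal, nerve and blood cells summed to 9.9 to 17.5 RPKM, with Cdh5, Col3a1, Hba-a1 and Hbb-bs among those listed at 0 in all libraries. Mitochondrially encoded genes took 12.17% to 13.03% of summed gene RPKM in passage 7 libraries, against 10.67% to 11.18% in those of passage 5.

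Some members share their coding sequence with another gene, and the stretches below show how close the copies are, since reads from such stretches can match both. They are read from GENCODE M21 transcripts (GRCm38, the assembly also called mm10). Rps27 (chromosome 3, 90212522 to 90213651, minus strand) encodes a zinc-binding protein of the small subunit. Rps27rt (chromosome 9, 114982366 to 114982739, minus strand) matched all 252 coding bases of Rps27, while Rps27l (chromosome 9, 66946086 to 66949516, plus strand), a paralog, differed from Rps27 at 60 of the 252. The first 60 coding bases follow, in capitals where Rps27 and Rps27l differ.
Rps27rt: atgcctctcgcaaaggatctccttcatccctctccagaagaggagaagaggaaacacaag
Rps27: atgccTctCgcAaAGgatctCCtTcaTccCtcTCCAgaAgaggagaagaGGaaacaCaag
Rps27l: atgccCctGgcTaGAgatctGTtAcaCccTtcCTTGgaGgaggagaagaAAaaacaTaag

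Rpl23a (chromosome 11, 78180932 to 78183584, minus strand), a large subunit protein near the exit of the peptide tunnel, and the intronless Rpl23a-ps3 (chromosome 14, 34170655 to 34171122, plus strand) differed at 1 of 468 coding bases. The 60 bases around that difference follow, with the differing base in capitals.
Rpl23a: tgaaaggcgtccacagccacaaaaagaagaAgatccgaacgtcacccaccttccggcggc
Rpl23a-ps3: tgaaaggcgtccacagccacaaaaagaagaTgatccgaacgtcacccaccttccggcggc

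In the gene table, the means of tested members ran from 1207 RPKM for Rpl8 down to 0.3901 for Rps18-ps3. Rpl8 (ENSMUSG00000003970, chromosome 15, 76904078 to 76906314), a core protein of the large subunit, was the highest, with 1247 and 1121 RPKM in clone 3, 1262 and 1160 in clone 1, and 1272 and 1180 in GFP at passages 7 and 5. Rplp1, a protein of the stalk that recruits elongation factors, averaged 1076 ± 47.7 RPKM and Rpl4, which lines the peptide tunnel, 1013 ± 85.5 (SD, n = 6 libraries). The 3 lowest members, Rpl10l, Rpl27-ps3 and Rpl39l, were listed at 0 in every library. For a gene of 1 kb, a 0 allows up to 0.173 to 0.218 RPKM, the value of 3 reads, by counting error only. This bound is larger for shorter genes and does not hold for Rpl27-ps3, which had 184 RPKM in the transcript table described below. Libraries differed far less than genes: the coefficient of variation over the 6 libraries had a median of 7.87% among tested members.

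**Figure D1:**
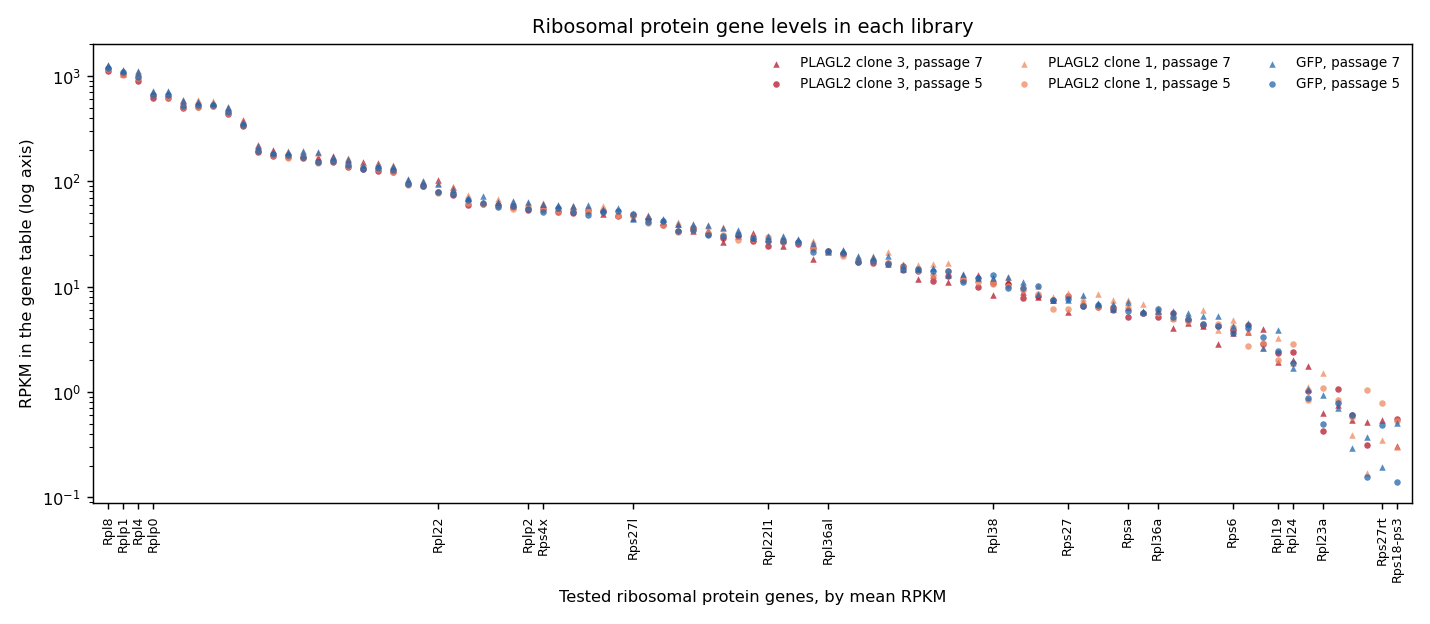
RPKM in the gene table (log axis) of the 87 tested ribosomal protein genes, ordered by mean and labelled for some of those named in the text, with 1 symbol per library (triangles passage 7, circles passage 5, colour the line); values of 0 are not drawn. Levels run down from Rpl8 with a mean of 1207 RPKM, and the 6 libraries lie close together except among the lowest genes.

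Several genes of core ribosomal proteins stood near the bottom of the gene table. Rps6, the small subunit protein phosphorylated by S6 kinase, had 3.64 and 3.86 RPKM in clone 3, 4.78 and 4.11 in clone 1, and 4.26 and 3.65 in GFP at passages 7 and 5. Rpl19, a large subunit protein, had 1.95 and 2.35 RPKM in clone 3, 3.23 and 2.03 in clone 1, and 3.91 and 2.48 in GFP at passages 7 and 5. Rpl23a had 0.626 and 0.425 RPKM in clone 3, 1.53 and 1.09 in clone 1, and 0.942 and 0.498 in GFP at passages 7 and 5. In whole reads this was 8 and 6 in clone 3, 20 and 16 in clone 1, and 11 and 7 in GFP, so the differences of Rpl23a between libraries rest on few reads. Rps6 was singled out here, and Rps24, Rpl9, Rpl35 and the copies Rpl9-ps6, Rpl10-ps3 and Rpl23a-ps3 below, after their values were seen.

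The deposited transcript table, also in RPKM, gave many of the same genes far higher levels. Summed over a gene's transcripts and averaged over the 6 libraries, Rps6 stood at 187 RPKM, against 4.05 in the gene table, and Rpl19 at 893, against 2.66. Rps27 stood at 979 in the transcript table and 7.28 in the gene table, and Rps27rt, its copy, at 863 and 0.392. Rps27l, which differs from them in sequence, stood at 128 and 47.1. Rpl8 and Rpl4 moved little, with 1120 and 881 in the transcript table and 1207 and 1013 in the gene table. Among tested members the transcript sum over the gene value had a median of 8.63 and ranged from 0.324 for Rpl35 to 2201 for Rps27rt.

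**Figure D2:**
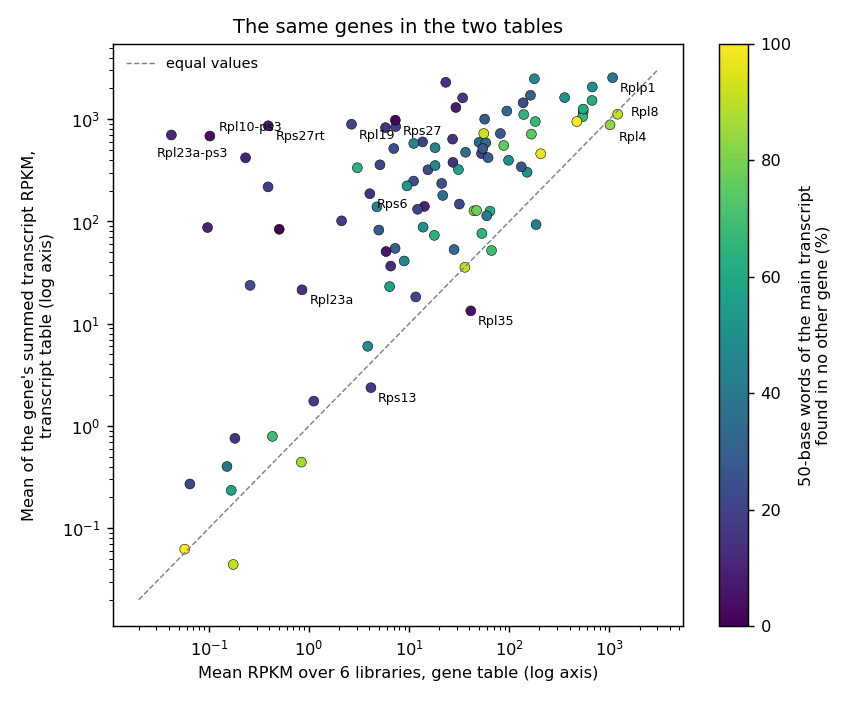
Mean RPKM of each member in the gene table (x, log axis) against the mean of its summed transcript RPKM (y, log axis), coloured by the share of 50-base words of its main transcript that no other gene holds; members at 0 in either table are not drawn. Rpl8 and Rpl4 lie near the dashed line of equal values, and Rps27, Rpl19, Rps27rt and Rpl23a-ps3 lie far above it.

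How much of a gene's sequence was its own moved with its level in the gene table. For each member the main transcript was split into words of 50 bases, and the share found in no other GENCODE M21 gene was taken. Rpl8 had 92.1% of its words to itself and 1207 RPKM in the gene table, and Rps27 had 1.4% and 7.28. Leaving out the 16 members with names ending in -ps and a number, which mark pseudogenes, the 30 genes with 50% or more of their words to themselves had a median of 65.3 RPKM, the 35 with 20% to under 50% a median of 31.7, and the 21 under 20% a median of 7.34. Medians of the transcript sums for the same 3 groups were 328, 358 and 462 RPKM. Over the 87 tested members, Spearman's rho of this share was 0.507 with the gene level, 0.055 with the transcript level and -0.545 with the ratio of the tables. These members share libraries and depth, the values describe them only, and the part of shared sequence in the low levels was not tested, since the sources used here do not give how reads with several matches were treated. Levels of members with shared sequence are therefore uncertain in both tables.

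The transcript table also placed large values on copies that the gene table left near 0. Rpl23a-ps3 averaged 701 RPKM in the transcript table and 0.0423 in the gene table, and Rpl10-ps3 685 and 0.102. Rpl9-ps6, which differs from Rpl9 at 1 of 576 coding bases, had 420 and 0.233, while Rpl9 itself, a large subunit protein, had 36.6 and 6.54. Of the 102 members, 12 are pseudogenes in GENCODE M21 although the table lists them as protein coding. A further 230 entries typed as ribosomal protein pseudogenes took 0.0590% to 0.0720% of summed gene RPKM over the libraries, and 3.12% to 3.45% of summed transcript RPKM.

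Paralogs known from other tissues were low or absent beside their parent genes. Rpl3l, known from heart and skeletal muscle, averaged 0.0574 RPKM, and Rpl3, whose protein reaches toward the peptidyl transferase centre, 27.4. Rpl10l and Rpl39l, both known from testis, were listed at 0, while Rpl10, which completes the large subunit, averaged 14.2 and Rpl39, a small protein of the peptide tunnel, 44.4. Rpl3l and Rpl39l had 100% and Rpl10l 92.4% of their words to themselves. Other paralogs were expressed: Rpl22l1 averaged 28.1 RPKM against 88.0 for Rpl22, Rpl7l1 36.0 against 94.5 for Rpl7, and Rpl36al 21.6 against 5.804 for Rpl36a. Rpl36a and Rpl36al differ at 39 of 318 coding bases, and Rpl36a had 14.5% of its words to itself, so their order is uncertain. The transcript sums put them the other way, at 180 for Rpl36al and 828 for Rpl36a.

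Together the 102 members took 2.94% (passage 7) and 2.67% (passage 5) of summed gene RPKM in clone 3, 2.98% and 2.67% in clone 1, and 2.98% and 2.73% in GFP. In the transcript table they took 8.07% and 7.60% in clone 3, 8.13% and 7.46% in clone 1, and 8.08% and 7.63% in GFP. The share was higher at passage 7 in all lines and in both tables, and the lines stood close together at each passage. Without the mitochondrially encoded genes in the sum, they took 3.35% and 2.98% of gene RPKM in clone 3, 3.41% and 3.01% in clone 1, and 3.43% and 3.06% in GFP.

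**Figure D3:**
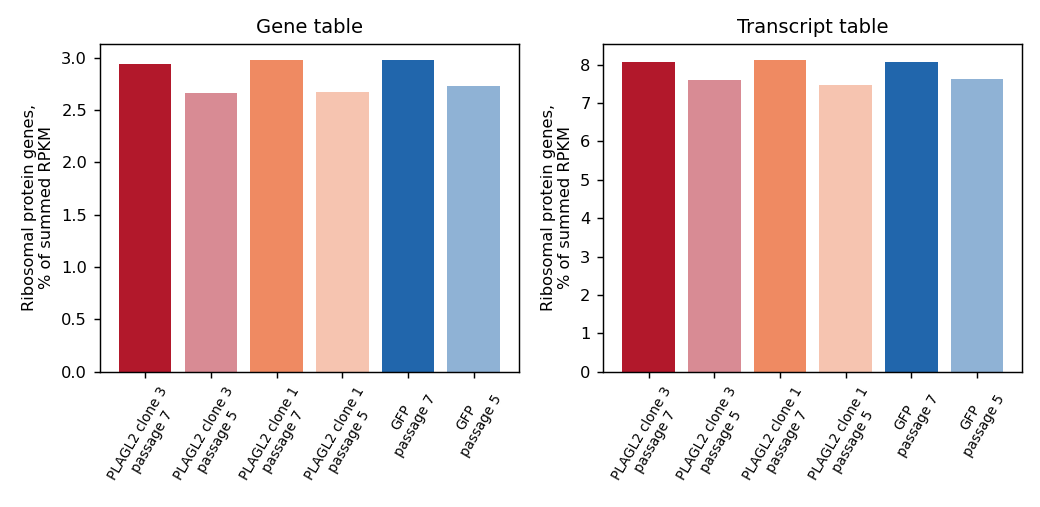
Share of summed RPKM taken by the 102 ribosomal protein genes in each library, in the gene table (left) and the transcript table (right), with passage 7 in the full colour and passage 5 in the pale colour of each line. Every passage 7 bar stands above the passage 5 bar of its line, and the lines differ little.

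Whether PLAGL2 changed these genes was asked with limma-trend on log2(RPKM + 0.5), which understates the change of low genes, with Benjamini-Hochberg adjustment over all 16314 genes tested. For PLAGL2 against GFP, 0 of 87 members passed an adjusted p of 0.05, where 0.00613% of all genes did. At an unadjusted p under 0.05 there was 1 member, Rpl29 of the large subunit, with a log2 change of -0.18, where 970 of all 16314 genes had one. The median log2 change of the members was -0.03 (0.982-fold), with 27 above 0 and 60 below, and the median of all genes tested was 0.01. The libraries of the groups did not overlap for 1 higher member, where 7.96% of all genes did so, and for 2 lower members, where 6.6% did.

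For clone 3 against GFP, 0 of 87 passed, where 0.349% of all genes did. The unadjusted p was under 0.05 for 1 member, Rpl38, where it was for 1474 of all 16314 genes. The median was -0.05 (0.964-fold), with 64 members below 0, against 0.01 over all genes. Both libraries of clone 3 lay below both GFP libraries for 17 members (19.5%), close to the 16.1% of all genes, and above them for 1, where 18.5% of all genes did so. For clone 1 against GFP, 0 passed, where 0.0306% of all genes did. The unadjusted p was under 0.05 for 0 members, where it was for 644 of all 16314 genes. In this contrast the median of the members was 0.00 (0.999-fold), with 42 above 0 and 45 below. For clone 3 against clone 1, 0 passed, where 0.0245% of all genes did, with a median of -0.05 and 65 members below 0. The unadjusted p was under 0.05 for 2 members, Rpl23a and Rpl36, where it was for 837 of all 16314 genes. Both contrasts with GFP share its 2 libraries. With passage as a block the members passing stayed at 0 in each contrast. Of all genes 0.0123% passed for PLAGL2 against GFP and 2.1% for clone 3 against GFP. For clone 1 against GFP 0.0736% passed, and for clone 3 against clone 1 0.288%. Members with an unadjusted p under 0.05 then numbered 1, 4, 2 and 5 of 87 in the same order, and the share of all genes is not given for these. SE and p-values printed for the lines come from fits without passage. The libraries of clone 1 lay above those of GFP for 3 members (3.45%), where 13.6% of all genes did so, and below for 5 (5.75%), where 12.5% did. The libraries of clone 3 lay above those of clone 1 for 0 members, where 14.5% of all genes did so, and below for 13 (14.9%), where 11.5% did. Leaving out 1 library turned the direction of each of these medians. It also leaves the passages unequal between the groups, and the members differed by passage. These runs therefore cannot decide whether a small difference between lines is present. Without the GFP library of passage 7 the median was 0.04 for PLAGL2, 0.01 for clone 3 and 0.06 for clone 1, each against GFP. Without the clone 1 library of passage 5 it was 0.08 for clone 1 against GFP, and without that of passage 7 it was 0.03 for clone 3 against clone 1. Without the clone 3 library of passage 5 it was 0.0022 for PLAGL2 against GFP, 0.0076 for clone 3 against GFP and 0.0061 for clone 3 against clone 1.

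The members with the most extreme changes each way did not pass either. Rpl19 had a log2 change of -0.46 (SE 0.29, adjusted p = 0.791 by limma-trend) in clone 3 against GFP. Rpl38, a large subunit protein known for effects on translation of homeobox messages, had 8.32 and 10.9 RPKM in clone 3, 11.95 and 10.65 in clone 1, and 12.05 and 12.89 in GFP at passages 7 and 5. Clone 3 lay below GFP at both passages, with a log2 change of -0.37 (SE 0.15, adjusted p = 0.550). Rps13, a small subunit protein, had a log2 change of -0.39 (SE 0.22, adjusted p = 0.732) in clone 3. On the other side stood Rps26-ps1 at 0.34 (SE 0.27, adjusted p = 0.863) in clone 3 and Rpl23a at 0.58 (SE 0.28, adjusted p = 1.0) in clone 1. Rpl24, a large subunit protein at the bridge between subunits, had 1.996 and 2.389 RPKM in clone 3, 1.89 and 2.86 in clone 1, and 1.69 and 1.87 in GFP at passages 7 and 5, and all 4 PLAGL2 libraries lay above both GFP libraries (log2 change 0.28, SE 0.18, adjusted p = 0.962). For clone 3 against clone 1, Rpl23a had -0.82 (SE 0.28, adjusted p = 0.872), Rps27rt -0.53 and Rpl36 of the large subunit -0.36 (SE 0.13, adjusted p = 0.875), with Rps26-ps1 at 0.34, Rps23 at 0.28 and Rps29 at 0.24 on the other side. The remaining extremes were Rpl36-ps3, at 0.26 in clone 3 and 0.42 in clone 1 against GFP, Rps27rt at 0.33, Rps23 at -0.36 and Rpl29 at -0.19 in clone 1, and Rps18-ps3 at 0.19 for PLAGL2 against GFP. With a gene length fitted to give whole reads, Rps27rt had 0 to 5 reads per library and Rpl36-ps3 1 to 7. Rps18-ps3 then had 1 to 4 and Rps26-ps1 6 to 11, so the changes of these genes rest on few reads. Among the highest members, Rpl8 changed by -0.03 (SE 0.14) and Rplp0, the base of the stalk, by -0.05 (SE 0.11) for PLAGL2 against GFP.

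**Figure D4:**
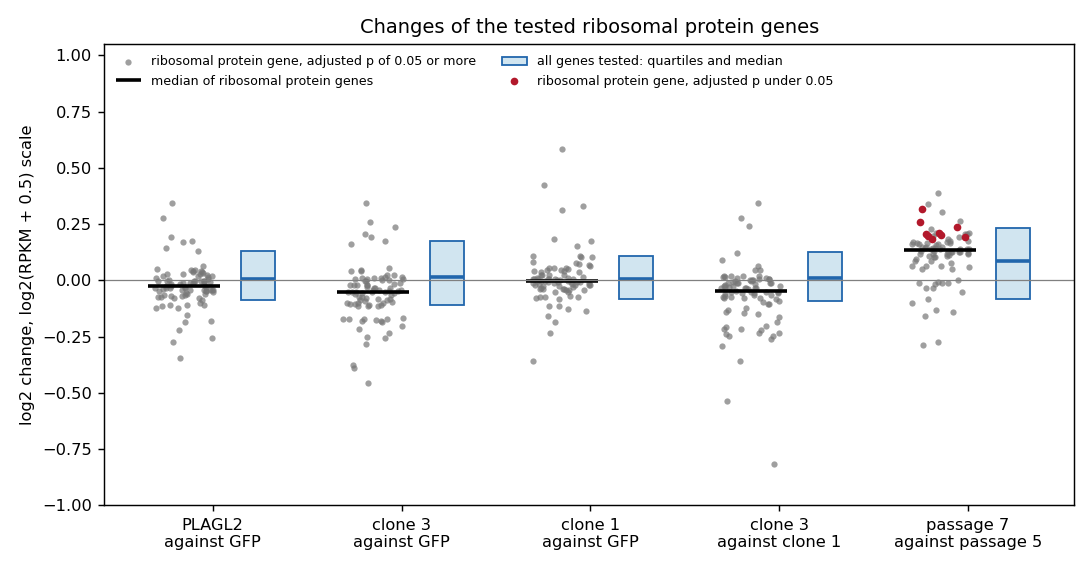
log2 change of each of the 87 tested ribosomal protein genes (points, black bar their median) in the 5 contrasts, beside the quartiles and median of all 16314 genes tested (boxes), on the log2(RPKM + 0.5) scale. The 4 contrasts of lines hold no red point, and passage 7 against passage 5 holds 9, all above 0.

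At passage 7 most ribosomal protein genes were slightly higher than at passage 5. Of 87 members, 72 (82.8%) had a log2 change above 0, where 64.4% of all genes tested did, with a median of 0.13 (1.10-fold), where the median of all genes tested was 0.09. Past the adjusted threshold, 9 rose (10.3%), where 6.81% of all genes rose, and 0 fell, where 5.3% of all genes fell. Among genes with a mean RPKM of at least 10 the shares were 14.8% of 61 members and 11.6% of 6043 genes, so the members' share stood close to that of genes at this level. All 3 passage 7 libraries lay above all 3 passage 5 libraries for 46 members (52.9%), where 24.5% of all genes did so, and at a mean RPKM of at least 10 for 41 (67.2%), where 28.4% did. All 3 passage 7 libraries lay below those of passage 5 for 1 member, where 10.7% of all genes did so. In 52 members every line was higher at passage 7, a count for which the share of all genes is not given. Taken singly, 59 members were higher in clone 3, 78 in clone 1 and 74 in GFP. Of all 16314 genes 9942, 10015 and 10155 were, in the same order. By line the median was 0.11 in clone 3, 0.16 in clone 1 and 0.15 in GFP, against 0.08 over all genes in each.

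Markers of cell types moved with passage as well. All 10 enterocyte markers fell, where 5.3% of all genes did, with a summed RPKM at passages 7 and 5 of 4207 and 8521 in clone 3, 4485 and 10145 in clone 1, and 3995 and 8726 in GFP. Of 8 stem cell markers 7 rose, where 6.81% of all genes did, with sums of 2201 and 1335 in clone 3, 2145 and 1375 in clone 1, and 1632 and 1241 in GFP at passages 7 and 5. Of 13 cell cycle genes 11 rose, with sums of 599 and 483, 617 and 495, and 597 and 479 in the same order, and 7 of 9 enteroendocrine markers rose. In bulk RNA, more cells of a type and more RNA per cell cannot be told apart, and the part of these markers in the passage difference of the ribosomal protein genes was not tested. Between lines 3 of 8 goblet cell markers fell in clone 3 against GFP, where 25 of all 16314 genes did.

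The 9 that rose came from both subunits. Rpl22, a large subunit protein that also binds other RNAs, had 102 and 78.3 RPKM in clone 3, 96.3 and 77.8 in clone 1, and 94.9 and 79.1 in GFP at passages 7 and 5. Its log2 change was 0.32 (SE 0.04, adjusted p = 0.0222 by limma-trend). Rps21, a small subunit protein, had 168 and 152 RPKM in clone 3, 186 and 149 in clone 1, and 189 and 152 in GFP at passages 7 and 5, with a log2 change of 0.26 (SE 0.05, adjusted p = 0.0433). Rpl6, of the large subunit, had 39.2 and 33.8 RPKM in clone 3, 40.7 and 33.2 in clone 1, and 38.9 and 33.6 in GFP at passages 7 and 5, a log2 change of 0.24 (SE 0.04, adjusted p = 0.0322). For all 9 genes every passage 7 library lay above every passage 5 library. The other large subunit genes were Rpl14 and Rpl26, whose product is known to bind p53 messages, with log2 changes of 0.21 and 0.20. Small subunit genes that also rose included Rps4x, Rps15 and Rps3, whose protein stands at the entry of the messenger channel, with 0.18 to 0.21. Rplp2 of the stalk, with 0.17 (adjusted p = 0.0541), and Rpsa, a small subunit protein also known as a laminin receptor, with 0.26 (adjusted p = 0.0567), missed the threshold.

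**Figure D5:**
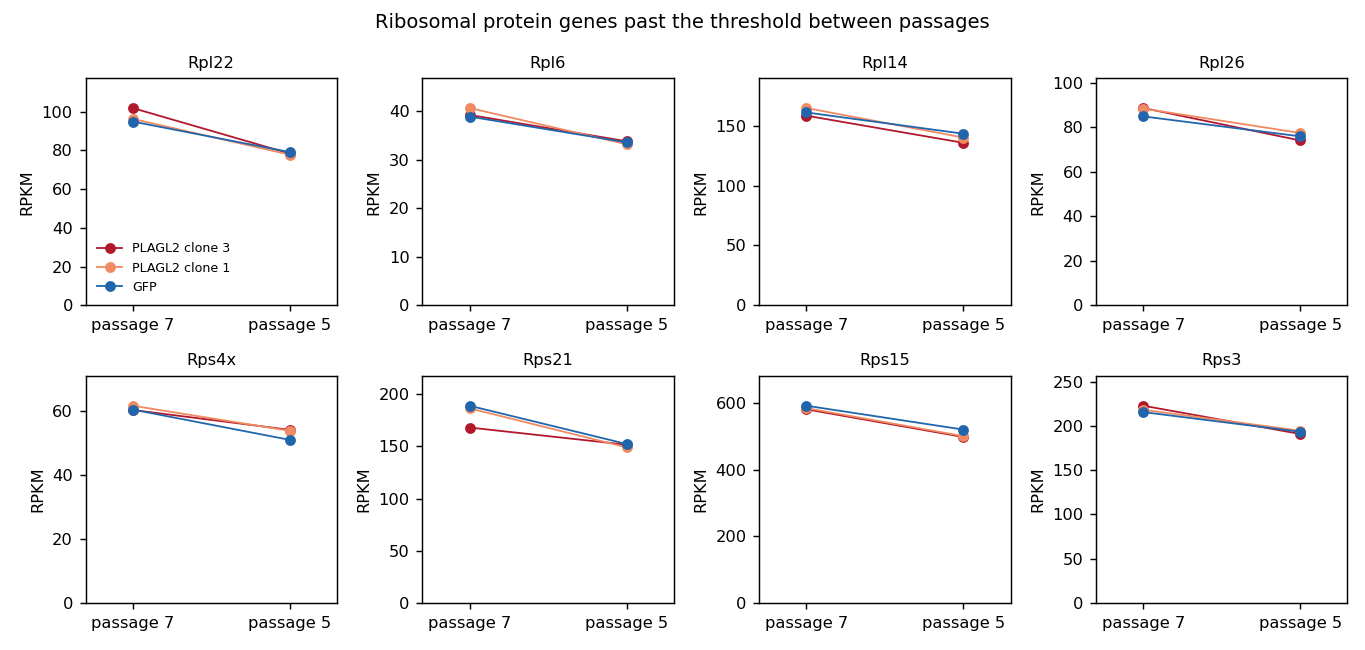
RPKM of 8 of the 9 ribosomal protein genes past the threshold between passages, with passage 7 left and passage 5 right, 1 line per enteroid line and each axis from 0. Every line is higher at passage 7 in every panel, with Rpl22 at 94.9 to 102 RPKM at passage 7 and 77.8 to 79.1 at passage 5.

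Among members that did not pass, the largest changes each way were in genes of low level. Rpl23a had 0.39 (SE 0.15, adjusted p = 0.152) and Rps26-ps1 0.34 (SE 0.15, adjusted p = 0.196), while Rps12-ps3 had -0.29 (SE 0.18, adjusted p = 0.319) and Rpl24 -0.27 (SE 0.12, adjusted p = 0.200). The count of 9 is sensitive to the libraries and to scaling. Without either GFP library or either clone 1 library, 0 members and 0 of all genes passed, in fits with 1 residual degree of freedom. Without the clone 3 library of passage 5, 2 members passed, where 762 of 16117 genes did in either direction. Without that of passage 7, 2 members passed, where 730 of 16003 genes did. Without the line in the fit the count was again 9, where 4.86% of all genes rose. After median-of-ratios scaling 1 of 86 members passed, where 1624 of 16299 genes did in either direction. The median then fell to 0.05, against 0.01 over all genes. After rescaling without mitochondrially encoded genes 20 of 87 members passed, where 2314 of 16678 genes did.

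Translation of a group of messages that includes most ribosomal protein messages is known to depend on a pyrimidine tract at the start of the RNA, and the starts of the genes that rose are shown for that reason. RefSeq (GRCm38.p6) held a promoter entry for 65 of the 102 members. The search was for a C followed by at least 4 bases that are each C or T, starting within 5 bases of an annotated start, on the transcribed strand only. It was found at 1 or more starts of 30 of the 65 (46.2%) and of 5718 of 27025 genes with an entry (21.2%). Starts are reported here for 8 of the 9 genes that rose, and 2 of these 8 held it, Rpl14 and Rps21. The windows run from 10 bases before the annotated start to 20 from it, with the tract in capitals.
Rpl14, chr9:120571507-120571536, plus strand: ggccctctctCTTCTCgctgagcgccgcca
Rps21, chr2:180257369-180257398, plus strand: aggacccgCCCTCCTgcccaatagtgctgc
Rpl22, chr4:152325716-152325745, plus strand: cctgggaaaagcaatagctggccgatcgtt
Rpl6, chr5:121204491-121204520, plus strand: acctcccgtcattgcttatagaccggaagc

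A match is a run of letters at an annotated position, which need not be the start used in these cells.

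Other genes of ribosome production were set against the same shares of all genes between passages, 64.4% above 0 and 6.81% past the threshold and higher. Among 78 tested ribosome assembly factors, 72 (92.3%) had a log2 change above 0 at passage 7 and 5 (6.41%) rose, a share of calls no higher than that of all genes. Among the 5 were Ncl, the nucleolar protein nucleolin, with a log2 change of 0.23 (SE 0.03, adjusted p = 0.0258 by limma-trend) and Npm1, nucleophosmin, with 0.24 (SE 0.04, adjusted p = 0.0284). Of 22 genes of RNA polymerase I and its factors, 21 (95.5%) were above 0 and 4 (18.2%) rose, including Polr1a, the largest subunit, by 0.20. Of 48 initiation and elongation factors, 43 (89.6%) were above 0 and 3 (6.25%) rose, including Eif4e, the cap-binding protein, by 0.25, and this share of calls too was no higher than that of all genes. All 16 host genes of small nucleolar RNAs were above 0 and 4 (25%) rose, with Gas5 at 0.25. Of 20 regulators of ribosomal protein genes 15 (75%) were above 0 and 3 (15%) rose. Among them Myc, a transcription factor that drives ribosome production, had 55.0 and 30.7 RPKM in clone 3, 51.6 and 35.4 in clone 1, and 52.8 and 34.5 in GFP at passages 7 and 5 (log2 change 0.66, SE 0.07, adjusted p = 0.0186). Of 74 mitochondrial ribosomal protein genes, 64 (86.5%) were above 0 and 0 rose.

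Outside the naming rule, Rack1, a scaffold on the small subunit, rose by 0.18 (adjusted p = 0.0449), while Fau, which encodes a small subunit protein fused to a ubiquitin-like domain, had -0.18 (adjusted p = 0.166). Between lines, 0 genes of these lists passed in any of the 4 contrasts, where 1 to 57 of all 16314 genes did. Above 0 for clone 3 against GFP were 11 of 78 assembly factors, 4 of 22 polymerase I genes and 8 of 20 regulators. So were 14 of 48 initiation and elongation factors, 4 of 16 host genes and 17 of 74 mitochondrial ribosomal protein genes. Of all genes 52.8% were. For clone 1 against GFP, 29 of 78 assembly factors and 11 of 16 host genes were above 0, where 51.7% of all genes were. The lists were not tested as sets.

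At the level of transcripts, 332 of the members' transcripts were tested and 0 passed in any contrast by limma-trend with adjustment over all 44747 transcripts. Of all transcripts 0.00447% passed for PLAGL2 against GFP, 0.00223% for clone 3, 0.0% for clone 1 and 0.0% for passage. Without the line in the fit 1 member transcript passed for passage, Rpl22-201, where 0.255% of all transcripts did. Unadjusted p-values under 0.05 numbered 13 (3.92%) for PLAGL2 against GFP, where 5.55% of all transcripts had one, 15 (4.52%) for clone 3 against GFP, where 6.93% did, and 12 (3.61%) for clone 1 against GFP, where 4.76% did. For passage 7 against passage 5 they numbered 68 (20.5%), where 13.1% of all transcripts had one. The passage median was 0.11, against 0.05 over all transcripts. Protein coding forms made 87.6% to 88.0% of the members' transcript RPKM over the 6 libraries, retained introns 6.04% to 6.35% and forms marked for nonsense-mediated decay 0.636% to 0.892%. Rps24, a small subunit protein, was split between forms Rps24-201, at 81.0% to 83.5% of the gene, and Rps24-202, at 16.5% to 19.0%. For Rplp0, form Rplp0-004 took 59.6% to 62.4%. The transcript with the smallest p for PLAGL2 against GFP, Rpl35a-005, was singled out after its values were seen. It had 9.46 and 11.6 RPKM in clone 3, 11.6 and 13.8 in clone 1, and 3.85 and 5.22 in GFP at passages 7 and 5, a log2 change of 1.27 (SE 0.18, adjusted p = 0.359). All 4 PLAGL2 libraries lay above both GFP libraries, yet the change missed the threshold, and this form was a small share of Rpl35a, whose leading form Rpl35a-001 averaged 222 RPKM.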

How the data were processed

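The authors deposited 1 table of RPKM per gene and 1 of RPKM per transcript, each with 1 column per library. The build was mm10, and STAR, Subread, featureCounts and edgeR were used, per the submitters' processing notes. Tool versions, the handling of multiply matching reads and the making of isoform values are not stated in the sources. Repeated entries were dropped (614 of 41383 genes, 1557 of 86210 transcripts). GENCODE M21 held 98.95% of gene identifiers, and with its exon lengths the values of 68.1% of 25468 detected genes were whole numbers of reads, to within 0.02 of a read, which gave the library totals.

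Tests used limma-trend (limma 3.58.1, R 4.3.3, two-sided) on log2(RPKM + 0.5). Features needed 0.5 RPKM or more in 2 or more libraries, with Benjamini-Hochberg adjustment over all features and a threshold of 0.05. The procedure was tested on simulated data. PLAGL2 against GFP used 2 groups, the contrasts of single lines 3 groups, and the passage contrast line and passage. Deviations of same-lettered libraries from their line's mean correlated across genes at 0.276 to 0.322, and the letters stand for passages, so passage was taken to pair the libraries.

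Words of 50 bases were compared with all M21 transcripts, and coding sequences were aligned with BLAST 2.17.0. The members and lists were chosen with earlier results of these data known. Named members were the 3 highest and lowest, the 3 largest changes each way and those past the threshold in each contrast, the paralogs, the stalk genes and Rpsa, and for other lists up to 5 genes past the threshold. Results for a few genes that these rules would name are not reported here.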

Additional observations from a re-analysis of the deposited data

Results flagged for a closer look

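Among the 4 PLAGL2 libraries, 4 of the 87 tested ribosomal protein genes had 1 library far from the other 3 by Dixon's ratio. Chance flags about 1 in 20 such groups. In clone 1 at passage 7, Rpl27a stood at 21.2 RPKM where the others had 16.3 to 16.9, Rpl5 at 6.84 where the others had 5.58 to 5.79, and Rpl21 at 5.95 where the others had 4.213 to 4.398. In clone 3 at passage 5, Rpl22l1 stood at 24.5 RPKM where the others had 28.6 to 29.4.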

How the results depend on the processing

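For passage 7 against passage 5 the count was 9 of 87 members, where 1975 of 16314 genes passed in either direction. With no filter on low values it was 1 of 99, where 629 of 25468 genes passed. After rescaling without mitochondrially encoded genes it was 20 of 87, where 2314 of 16678 did. After median-of-ratios scaling it was 1 of 86, where 1624 of 16299 did. After quantile normalization it was 18 of 87, where 1659 of 16314 did. When 1 library was left out it was 0 to 2. The cause was not tested. The passage median of 0.134 became 0.159 without mitochondrially encoded genes and 0.0504 after median-of-ratios scaling. It ran from 0.132 to 0.161 when 1 library was left out. When 1 library was left out, the medians ran from -0.0917 to 0.0362 for PLAGL2 against GFP, from -0.119 to 0.0116 for clone 3 against GFP, from -0.0779 to 0.0754 for clone 1 against GFP and from -0.12 to 0.0326 for clone 3 against clone 1. The counts of 0 members for the 4 contrasts of lines stayed at 0 with every other pseudocount, filter and scaling. Of all genes, 0 to 17 then passed for PLAGL2 against GFP and 44 to 57 for clone 3 against GFP. For clone 1 against GFP 3 to 22 passed, and for clone 3 against clone 1 3 to 23. So few passed that a count of 0 of 87 says little about the members. Leaving out 1 library leaves 1 in its line, so those runs cannot decide this. With passage as a replicate block the count stayed at 0 in the 4 contrasts of lines, and no member's call changed. Without the replicate block (passage fitted without the line) 9 members and 1 transcript, Rpl22-201 (adjusted p = 0.0337), passed for passage. The recovered depth limits the lowest genes: Rpl23a rests on 6 to 20 reads per library, Rps12-ps3 on 2 to 5 and, by a fitted length, Rps27rt on 0 to 5.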
